A study of Oryza sativa with 36 samples.

Results

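Flag leaves of the rice variety WFB were compared between crops grown as middle rice and as early rice, on the first day after flowering. The comparison was defined by its labels, with earlier results of these data known. It held 6 of the 36 libraries of the series: 3 labelled WFB, early season, day 1 and 3 labelled WFB, middle season, day 1. WFB is a parent of the rice WFYT025, whose other parent is CHT025. Flag leaves of all 3 varieties were sampled on day 1 and day 10 after flowering in both seasons, with 3 libraries in each of the 12 combinations. Every difference below is the middle season minus the early season unless stated otherwise, and the labels record no treatment beyond variety, season and day. The hour of sampling, the field and the weather were not given in the sources used here, and season and any difference in growth, harvest or preparation that went with it cannot be told apart. Whether the 3 libraries of a group stem from different plants is not in the labels, and the p-values cover library-to-library spread only, which could be technical.

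The flag leaf is the last leaf of a rice shoot and the main source of sugar for the filling grain. Its chloroplasts capture light with chlorophyll bound to light-harvesting proteins, fix carbon with Rubisco and store part of the product as starch by day, and starch-degrading enzymes and sucrose export return it to the grain. The circadian clock sets the daily timing of many of these genes through a morning MYB factor, pseudo-response regulators and an evening complex. Early light-induced proteins protect the thylakoid under excess light or cold, ferritin stores iron, and jasmonate, sensed through ZIM domain repressors and helix-loop-helix factors, switches on wound and defence genes.

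The values were FPKM, fragments scaled to gene length and library size, and 1 FPKM was added before taking log2. A gene was tested when at least 3 of the 36 libraries held 1 FPKM or more, which left 18585 genes, and it was called at an adjusted p under 0.05 in limma's moderated test. The 6 libraries each summed to between 556191 and 567391 FPKM and held between 22883 and 23487 genes above 0. Depth is unknown, since the files give no counts. On log2 values the libraries correlated at 0.9935 to 0.9949 within a group and at 0.7962 to 0.8125 between the groups. Defining leaf genes were abundant in all 6 libraries: the summed level of CAB1R, CAB2R, RBCS2, RBCS4 and RCA was 33962 to 35859 FPKM in the early season and 30749 to 33144 in the middle season. Within these sums RCA was higher in the middle season and the other 4 genes were lower, as given below. The secondary wall cellulose synthases CESA4, CESA7 and CESA9 together stayed at or below 0.41 FPKM.

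The libraries labelled WFB, early season, day 1 stood apart from the other WFB libraries in which genes they held at all. In these libraries 116 genes were at 1 FPKM or more in all 3 libraries and at most 0.1 FPKM in each of the other 9 WFB libraries, and 12 genes showed the reverse. The same counts for each of the other 11 groups within its variety were 0 to 19 and 0 to 5. Of the 116 genes, 59 were at most 0.1 FPKM in all 33 other libraries of the series, and 35 were at 1 FPKM or more in all libraries of CHT025. By locus name 22.4% of them lay on chromosome 11 and 19.0% on chromosome 12, which hold 5.10% and 5.52% of the tested genes. Genes that tell the varieties apart followed the label in part. Of 78 genes present in the other 9 WFB libraries and at or near 0 in CHT025, 70 were present in all 3 of these libraries and none was at or near 0. Of 113 genes at or near 0 in the other 9 WFB libraries and present in CHT025, 60 were at or near 0 here and 35 were present. These are the same 35 genes as those of the 116 given above, so their count is not a separate observation. Chosen the same way for each of the other 3 WFB groups, 61 to 65 genes typical of CHT025 were found, and 0 of them were present in the group. Whether these leaves came from the same seed stock as the other WFB leaves was not given in the sources used here, and a difference of stock and one of season cannot be told apart in any difference below. The acyl-CoA dehydrogenase gene LOC_Os06g23870 came close to the pattern at a higher level but is not among the 116 genes. The largest early-season mean of those was 51.9 FPKM. LOC_Os06g23870 stood at 152, 153 and 146 FPKM in the early-season libraries and at 0.06, 0.05 and 0.21 in the middle season. The last of these is above the limit of 0.1 FPKM. Its means were 0.147 and 0.11 in the day 10 groups of WFB, 144 to 275 in CHT025 and 69.2 to 131 in WFYT025. Since the whole early-season arm carries this pattern, no value of the comparison can be given without it. Without the 116 and the 12 genes, but with LOC_Os06g23870 kept, 6149 genes were called higher and 8276 lower.

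Grain storage protein transcripts were also higher in the middle-season libraries of this comparison. The summed level of 43 glutelin and prolamin genes was 5.64, 123 and 5.76 FPKM in the early-season libraries and 575, 647 and 480 in the middle season. Of 28 tested members 26 rose, none fell, and the median difference was 2.87 on the log2 scale. Between seasons in CHT025 on day 1, 16 rose and 0 fell. In WFYT025 on day 1 and in WFB on day 10, 0 were called in either direction. The level also varied within other groups, for instance from 12.9 to 414 FPKM among the early-season WFB libraries of day 10. It varied less among the middle-season CHT025 libraries of day 1, from 238 to 383 FPKM. Over the 36 libraries it ran from 3.11 to 647 FPKM, with 12 libraries under 20 FPKM and 24 above 60. The 647 FPKM belongs to the middle-season group compared here, and every other group stayed at or below 414. Among 97 genes described by pollen or anther, 61 of them at 0 in all 3 middle-season libraries, the sum was 89.3 to 102 FPKM in the early season and 155 to 173 in the middle season. Of the 22 tested, 7 rose and 8 fell. The median sum was also higher in the middle season in CHT025 on day 1 (106 and 255 FPKM), WFYT025 on day 1 (92.6 and 214) and WFB on day 10 (132 and 228). The part of storage, pollen and anther transcripts in the differences below was not tested. In bulk leaf, fewer cells of a type and less RNA per cell cannot be told apart.

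The transcriptome of WFB on day 1 differed between the early-season and middle-season libraries across most genes. In limma's test 6161 genes were higher in the middle season and 8392 were lower, 33.2% and 45.2% of the genes tested, or 78.3% together. At least 2-fold differences on the log2(FPKM + 1) scale were called for 2516 genes that rose and 2580 that fell, 13.5% and 13.9%. An 8-fold difference was reached by 358 genes that rose and 201 that fell. The 3 middle-season values did not overlap the 3 early-season values in 14736 genes, 79.3%. The median difference over all tested genes was −0.11, and the median absolute difference was 0.54. With calls this frequent, the counts of gene lists below are read against these shares.

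The highest rises among genes with a described function were led by a pair of early light-induced proteins, a helix-loop-helix factor and a late embryogenesis abundant protein. LOC_Os07g08160, an early light-induced protein, stood at 2.56, 2.85 and 1.44 FPKM in the early season and at 1507, 1387 and 1448 in the middle season. Its neighbour in name LOC_Os07g08150 went from 1.26, 1.38 and 1.17 to 632, 614 and 616 FPKM. The differences were 8.81 ± 0.10 (SE) and 8.10 ± 0.06 on the log2 scale, with adjusted p = 4.7e-34 and 2.44e-38. The basic helix-loop-helix gene LOC_Os04g23550 was at 0.27, 0.22 and 0.11 FPKM in the early season and at 320, 371 and 290 in the middle season. The late embryogenesis gene LOC_Os01g21250, of a family known for protecting dehydrating cells, went from 10.8, 17.6 and 16.0 to 3116, 3547 and 2802 FPKM. In each of these genes the lowest middle-season library lay far above the highest early-season one.

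The other 8 of the 12 largest rises included 3 ZIM domain genes, described with the jasmonate genes below, and 5 genes of other families. WRKY76 (LOC_Os09g25060), a WRKY factor known in rice as a regulator of defence, was at 0.15, 0.18 and 0.13 FPKM in the early season and at 220, 229 and 193 in the middle season. LOC_Os03g58290, described as an indole-3-glycerol phosphate lyase, was at 0, 0.04 and 0 against 124, 157 and 107 FPKM. The MATE efflux gene LOC_Os03g08900 was at 0, 0 and 0.03 against 99.0, 95.3 and 89.0. The cysteine protease gene LOC_Os03g54130 was at 0.49, 0.38 and 0.59 against 105, 99.0 and 113, and the cytochrome P450 gene LOC_Os11g05380 at 0.02, 0.07 and 0 against 81.9, 83.3 and 65.8. A P450 gene of the duplicated ends of chromosomes 11 and 12, LOC_Os12g05440, was at 0, 0.06 and 0 against 29.6, 32.8 and 25.5 FPKM. How reads were split between the P450 copies is not known, so their separate levels are uncertain.

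The deepest fall was in LOC_Os07g34570, an FAD dependent oxidoreductase that the deposited annotation assigns to thiazole and thiamine synthesis. It stood at 5059, 5485 and 5157 FPKM in the early season and at 1.25, 2.75 and 2.95 in the middle season, a difference of −10.67 ± 0.13 on the log2 scale with adjusted p = 5.31e-33. The thiamine synthesis gene thiC, LOC_Os03g47610, went from 358, 301 and 311 FPKM to 3.19, 3.56 and 3.50. A universal stress protein gene, LOC_Os05g28740, went from 1000, 1179 and 1109 FPKM to 1.64, 1.98 and 2.52. NADH-GOGAT2 (LOC_Os05g48200), a glutamate synthase of nitrogen assimilation, went from 385, 357 and 364 to 1.27, 1.43 and 1.40. LOC_Os01g01340, described as light-induced protein 1-like, went from 3542, 3813 and 3528 to 37.6, 41.2 and 38.3. Each of these 5 genes lay at 301 FPKM or more in all early-season libraries and at 41.2 or less in all middle-season ones.

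Other genes among the 12 largest falls served transport, hormone response and pigment synthesis. The aquaporin gene LOC_Os05g14240 had values of 210, 244 and 230 FPKM against 0.26, 0.51 and 0.86. The AP2 factor LOC_Os09g11480 had 119, 136 and 127 against 0.59, 0.61 and 1.08, and the auxin-repressed protein gene LOC_Os11g44810 had 606, 693 and 659 against 7.88, 8.72 and 10.99. LOC_Os04g58280, described as stem-specific protein TSJT1, had 135, 144 and 134 against 0.80, 1.38 and 1.10. The phosphatase gene LOC_Os01g09540 had 277, 308 and 300 against 4.38, 3.46 and 3.91. The other two were PORA, described with the chlorophyll genes, and LOC_Os06g23870, described above. In the plot of the 24 largest changes no library of either season crosses to the other side, because only genes with groups that do not overlap were eligible.

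**Figure D1:**
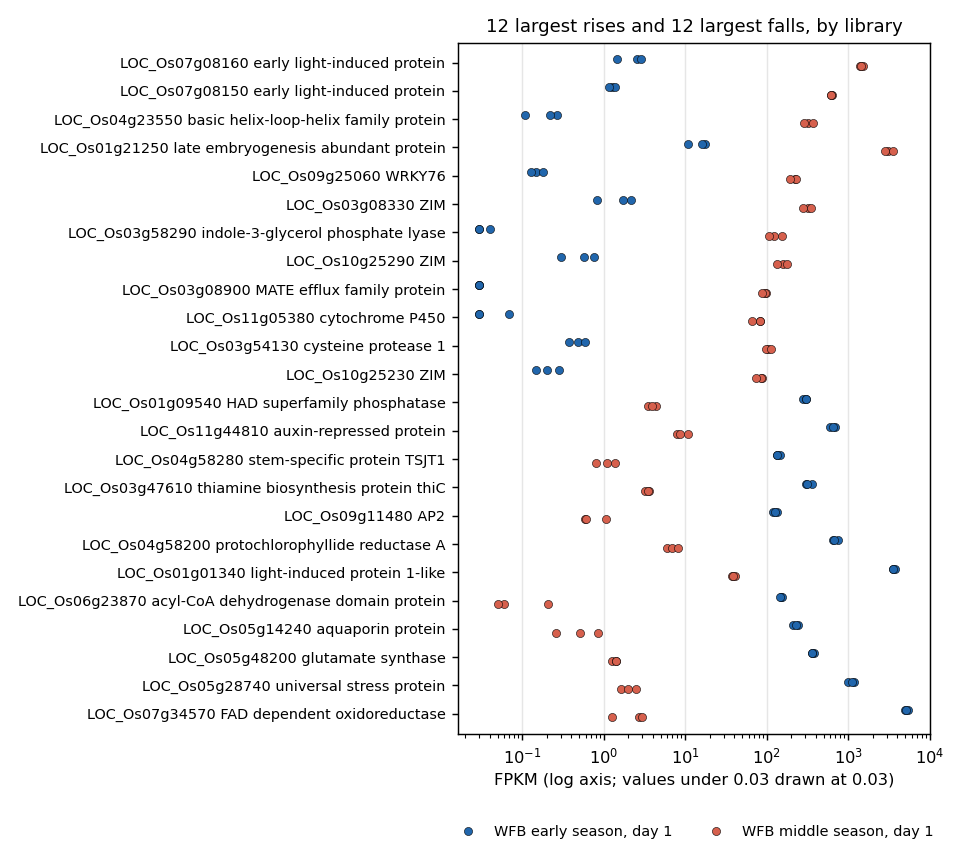
FPKM on a log axis for the 12 largest rises and 12 largest falls of WFB between seasons on day 1, with 1 point for each of the 3 early-season (blue) and 3 middle-season (red) libraries. Values under 0.03 FPKM are drawn at 0.03. LOC_Os07g08160 heads the rises at about 1447 FPKM in the middle season, and LOC_Os07g34570 ends the falls. Only genes with groups that do not overlap were eligible.

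Clock genes differed sharply, with the morning factor high in the middle season and most later-phased genes low. LHY (LOC_Os08g06110), the MYB factor of the morning loop, was at 23.4, 23.5 and 24.1 FPKM in the early season and at 552, 537 and 534 in the middle season, a difference of 4.46 ± 0.04 with adjusted p = 1.32e-35. Of 14 clock genes tested 2 rose, 11 fell and 1 did not pass, with a median difference of −1.41. The other rise was ZTL1 (LOC_Os02g05700), a blue light receptor F-box protein, by 0.28 ± 0.05. FKF1 (LOC_Os11g34460), a related receptor that helps start flowering signals, went from 35.1, 32.4 and 35.5 FPKM to 0.08, 0.11 and 0.09. The pseudo-response regulator PRR95 (LOC_Os09g36220) went from 499, 468 and 479 FPKM to 68.0, 61.8 and 64.7, and PRR59 (LOC_Os11g05930) from 51.7, 47.6 and 48.3 to 10.6, 10.3 and 9.27.

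Several clock genes differed by little. PRR37 (LOC_Os07g49460) differed by −0.61 ± 0.04, PRR73 (LOC_Os03g17570) by −0.18 ± 0.07 and ELF3-1 (LOC_Os06g05060) by −0.11 ± 0.05, against −2.55 ± 0.09 for ELF3-2 (LOC_Os01g38530). PRR73 no longer passed without early-season library 3 (−0.16) or middle-season library 1 (−0.15), nor ELF3-1 without early-season library 1 (−0.07) or middle-season library 2 (−0.09). GI (LOC_Os01g08700), an evening component, went from 620, 568 and 497 FPKM to 164, 164 and 135. LUX (LOC_Os01g74020), the MYB subunit of the evening complex, went from 4.77, 6.01 and 6.66 to 0.24, 0 and 0.04, and its partner ELF4a (LOC_Os11g40610) from 21.8, 23.7 and 23.9 to 7.49, 5.93 and 7.01. PRR1 (LOC_Os02g40510), the rice counterpart of TOC1, went from 45.5, 46.1 and 46.1 to 20.1, 19.3 and 19.6. ZTL2 (LOC_Os06g47890) was at 64.2 to 66.3 FPKM in the early and 63.7 to 67.1 in the middle season, a difference of 0.00 ± 0.06 with adjusted p = 0.971. The part of these genes in the other differences was not tested.

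**Figure D2:**
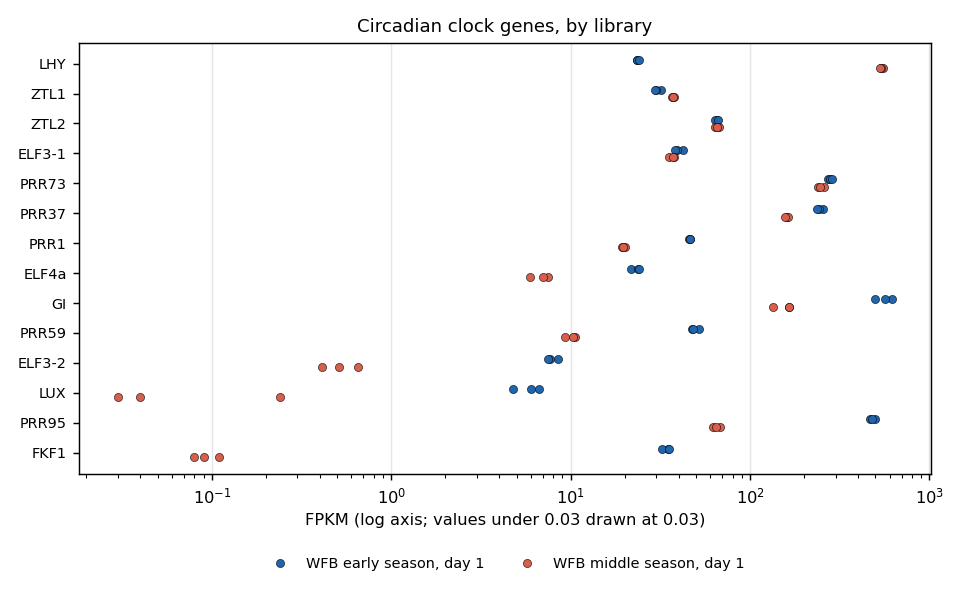
FPKM on a log axis for 14 circadian clock genes in the 3 early-season (blue) and 3 middle-season (red) libraries of WFB on day 1, ordered by difference. LHY lies higher in the middle season, ZTL2 overlaps, and FKF1, PRR95 and LUX show the deepest falls.

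Flowering genes and photoreceptors were mostly lower in the middle season, by smaller amounts. Of 16 listed genes 14 were tested, of which 2 rose, 9 fell and 3 did not pass, with a median of −0.37. The florigen gene Hd3a (LOC_Os06g06320) differed by −0.37 ± 0.08. Ehd1 (LOC_Os10g32600), a response regulator that promotes flowering, rose from 1.15, 0.81 and 1.04 to 6.94, 6.18 and 6.35. The red light receptors PHYA (LOC_Os03g51030), PHYB (LOC_Os03g19590) and PHYC (LOC_Os03g54084) fell by 1.06, 1.04 and 1.77 on the log2 scale, and the blue light receptor CRY2 (LOC_Os02g41550) by 1.31. The MADS box genes MADS14 and MADS18 and the receptor CRY1a did not pass the test, and Hd1 and Ghd7 were too low to be tested.

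Chlorophyll synthesis was lower along nearly the whole pathway. Of 17 tested genes 15 fell, 1 rose and 1 did not pass, with a median of −1.47 on the log2 scale, and the summed level went from 5392, 5463 and 5440 FPKM to 2476, 2452 and 2591. PORA (LOC_Os04g58200), a light-dependent protochlorophyllide reductase, was at 657, 753 and 663 FPKM in the early season and at 6.92 and 8.27 in middle-season libraries 2 and 3, with library 1 the lowest at 6 FPKM, a difference of −6.43 ± 0.11 with adjusted p = 9e-30. PORB (LOC_Os10g35370), which catalyses the same step, went from 513, 538 and 552 to 116, 113 and 120. The magnesium chelatase subunits CHLH (LOC_Os03g20700), CHLD (LOC_Os03g59640) and CHLI (LOC_Os03g36540) fell by 1.69, 1.48 and 1.47. GSA (LOC_Os08g41990), an early enzyme of the pathway, went from 192, 184 and 194 FPKM to 32.2, 35.1 and 33.4. HEMA1 (LOC_Os10g35840), the first committed step, fell by 0.10 ± 0.04, HEMB (LOC_Os06g49110) rose by 0.96 ± 0.12 and the divinyl reductase DVR differed by 0.07 ± 0.05 without passing. HEMA1 no longer passed without early-season library 1 or middle-season library 1 (−0.09 each), or without early-season library 3.

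Chlorophyll breakdown genes divided. Of 7 tested genes 5 rose and 2 fell, with a median of 0.67. SGR (LOC_Os09g36200), the magnesium dechelatase that opens the breakdown route, went from 0.85, 0.56 and 1.13 FPKM to 21.8, 23.7 and 19.3, a difference of 3.62 ± 0.08 with adjusted p = 3.92e-26. The pheophytinase NYC3 (LOC_Os06g24730) and pheophorbide a oxygenase PAO (LOC_Os03g05310) rose by 0.96 and 0.80, and the senescence factor NAP (LOC_Os03g21060) by 0.44. The chlorophyll b reductases NYC1 (LOC_Os01g12710) and NOL (LOC_Os03g45194) fell, NYC1 from 145, 141 and 147 FPKM to 61.5, 62.6 and 61.6.

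**Figure D3:**
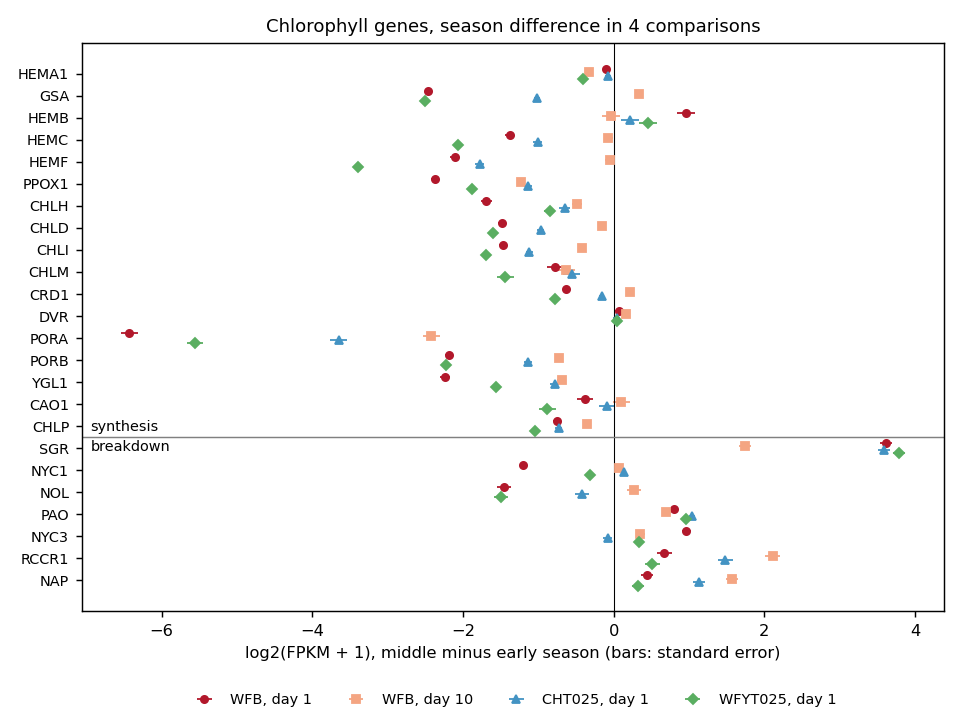
Season difference in log2(FPKM + 1), with standard errors, for 17 chlorophyll synthesis genes in pathway order and 7 breakdown genes, in WFB on day 1 (circles), WFB on day 10 (squares), CHT025 on day 1 (triangles) and WFYT025 on day 1 (diamonds). PORA has the deepest fall in each comparison, and SGR the highest rise in 3 of the 4.

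The summed level of light-harvesting and photosystem genes was lower in the middle season, while early light-induced proteins of the same superfamily rose. Of 67 tested genes described as chlorophyll A-B binding or photosystem proteins 36 fell, 7 rose and 24 did not pass, with a median of −0.59, so that the share of falls was not far above that of all tested genes. Their summed level was 93793, 98385 and 95579 FPKM in the early season and 45723, 43920 and 45804 in the middle season. CAB2R (LOC_Os01g41710) went from 13439, 14474 and 13910 FPKM to 2798, 2875 and 3015, and CAB1R (LOC_Os09g17740) from 8283, 8917 and 8526 to 4030, 4068 and 4310. The photosystem II 10 kDa gene LOC_Os07g05360 went from 3803, 3312 and 3741 to 272, 392 and 356. All 3 tested early light-induced genes rose, the third being LOC_Os01g14410, from 10.99, 12.9 and 10.9 to 715, 643 and 682 FPKM. Members of these families share long stretches of sequence, so the split of reads between them is uncertain.

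Rubisco small subunits fell while Rubisco activase rose. RCA (LOC_Os11g47970), the activase that keeps Rubisco active, was at 5264, 5323 and 5322 FPKM in the early season and at 19669, 18689 and 20609 in the middle season, a difference of 1.89 ± 0.04 with adjusted p = 2.34e-26. RBCS3 (LOC_Os12g19381) differed by −0.90 ± 0.03, RBCS2 (LOC_Os12g17600) by −0.55 ± 0.05 and RBCS4 (LOC_Os12g19470) by −0.33 ± 0.03. All 4 genes passed, 1 higher and 3 lower, and with quantile normalization, which forces all libraries to one distribution, the calls were 2 higher and 2 lower, with RBCS2 at 0.54.

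Starch and sucrose genes moved unevenly. Of 16 tested starch genes 9 rose and 5 fell, with a median of 0.26. The starch synthase SSI (LOC_Os06g06560) went from 15.1, 13.2 and 14.2 FPKM to 122, 121 and 123, and the leaf granule-bound synthase GBSSII (LOC_Os07g22930) from 44.7, 43.3 and 45.4 to 220, 211 and 220. The glucan water dikinase GWD1 (LOC_Os06g30310), which starts starch breakdown, fell by 1.10 ± 0.05. SSIVa (LOC_Os01g52250) was called lower although its groups overlapped, at 18.0, 3.44 and 20.3 against 3.78, 4.14 and 3.71 FPKM, with early-season library 2 among the middle-season values. Its difference was −1.32, or −2.05 without that library.

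Amylases, described by name alone, were mostly higher. Of 11 tested alpha- and beta-amylase genes 9 rose and 1 fell, with a median of 1.27. The beta-amylase gene LOC_Os03g04770 went from 19.6, 22.1 and 18.2 FPKM to 426, 409 and 422, and LOC_Os03g22790 from 0.55, 0.67 and 0.73 to 31.4, 26.9 and 31.5. The summed level of the 20 listed genes went from 74.9, 79.9 and 74.2 FPKM to 603, 577 and 601.

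Of 15 tested sucrose genes 8 rose, 3 fell and 4 did not pass, with a median of 0.16, and with quantile normalization 5 rose and 4 fell. SPS1 (LOC_Os01g69030), a sucrose-phosphate synthase, went from 12.9, 12.9 and 12.6 FPKM to 73.8, 74.6 and 72.8. The cytosolic fructose bisphosphatase cFBP1 (LOC_Os01g64660) went from 58.4, 55.9 and 60.9 to 273, 278 and 277. Of the sucrose transporters, SUT2 (LOC_Os12g44380) went from 7.51, 7.55 and 7.05 to 34.4, 34.4 and 32.9, while SUT1 (LOC_Os03g07480) was at 5.03 to 6.02 against 4.85 to 5.22 and did not pass. The sucrose synthase SUS2 (LOC_Os06g09450), which cleaves sucrose, fell by 1.75 ± 0.06.

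Nitrogen assimilation and iron genes held some of the sharpest contrasts. Of 10 tested nitrogen genes 7 rose and 3 fell, with a median of 0.40. The nitrate reductases NIA1 (LOC_Os08g36480) and NIA2 (LOC_Os08g36500) went from 4.38, 4.72 and 4.44 to 58.6, 58.1 and 61.3 FPKM and from 3.17, 3.56 and 3.15 to 31.6, 32.1 and 33.4. The glutamine synthetases GS2 (LOC_Os04g56400) and GS1;1 (LOC_Os02g50240) rose by 0.62 and 1.18, against the fall of NADH-GOGAT2 given above. Of 7 tested phosphate and iron genes 3 rose and 4 fell. The ferritins FER1 (LOC_Os11g01530) and FER2 (LOC_Os12g01530) went from 13.3, 14.9 and 15.8 to 487, 324 and 365 FPKM and from 24.1, 27.0 and 28.0 to 1026, 925 and 1051. The ferritin genes are close copies, so their separate levels are uncertain, and the rise is shown only for their signal together. IRO2 (LOC_Os01g72370), a helix-loop-helix factor of iron uptake, fell from 2.87, 3.04 and 3.15 to 0.09, 0.19 and 0.38.

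Antioxidant enzymes split evenly, with 3 of 6 tested genes higher and 3 lower. The cytosolic ascorbate peroxidase APX2 (LOC_Os07g49400) went from 157, 163 and 157 FPKM to 658, 691 and 633, and APX1 (LOC_Os03g17690) rose by 0.75 ± 0.05. CATC (LOC_Os03g03910), the abundant leaf catalase, went from 1113, 1103 and 1077 to 1969, 1910 and 1975. CATA (LOC_Os02g02400) moved the other way, from 168, 193 and 188 FPKM to 3.80, 5.80 and 5.96, a difference of −4.91 ± 0.26 with adjusted p = 7.81e-17. Glutathione S-transferases, which detoxify reactive compounds, were mostly higher: 28 of 46 tested rose, 8 fell, and the median was 0.77. LOC_Os10g38610 of this family went from 1.38, 1.24 and 0.76 FPKM to 73.3, 70.3 and 71.0. Of 26 tested class III peroxidases, which act in the cell wall, 11 rose and 12 fell.

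Jasmonate genes rose in the middle season. Of 23 tested genes for lipoxygenase, allene oxide and oxophytodienoate enzymes and ZIM domain repressors, 17 rose, 3 fell and 3 did not pass, with a median of 1.68. The summed level went from 266, 287 and 281 FPKM to 1919, 2046 and 1657. The ZIM domain gene LOC_Os03g08330 went from 0.82, 2.15 and 1.72 FPKM to 325, 353 and 282, LOC_Os10g25290 from 0.30, 0.77 and 0.57 to 158, 178 and 133, and LOC_Os10g25230 from 0.28, 0.20 and 0.15 to 88.5, 85.8 and 73.3. LOC_Os03g28940, a ZIM domain gene with more signal in the early season, went from 18.6, 21.8 and 21.7 to 906, 1006 and 772. Middle-season library 3 was the lowest of its group in each of these 4 genes and still lay above all early-season libraries.

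Transcription factor families linked to stress held more rises than falls. Of 62 tested WRKY genes 41 rose and 10 fell, with a median of 0.54, and their summed level went from 478, 524 and 491 FPKM to 1449, 1590 and 1362. WRKY71 (LOC_Os02g08440) went from 7.14, 9.31 and 9.05 FPKM to 241, 265 and 212, and WRKY62 (LOC_Os09g25070) from 0.03, 0 and 0.04 to 31.2, 37.8 and 43.9. WRKY112 (LOC_Os09g09630) was at 36.3, 33.6 and 33.2 against 0, 0 and 0.13. The helix-loop-helix family had 23 rises and 16 falls among 51 tested genes. LOC_Os01g56690 of that family went from 0.08, 0.05 and 0.16 to 65.0, 84.9 and 71.4 FPKM, and LOC_Os03g53020 from 6.91, 7.47 and 7.63 to 165, 191 and 151.

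In the AP2 and ERF family 30 of 54 tested genes rose and 20 fell, among them LOC_Os08g36920, from 0.08, 0.29 and 0.42 FPKM to 94.6, 66.6 and 73.9. All 3 cold-response factors rose, DREB1C (LOC_Os06g03670) by 2.31 ± 0.14 and DREB1A (LOC_Os09g35030) by 0.51 ± 0.15 on the log2 scale. DREB1B (LOC_Os09g35010) went from 16.2, 17.5 and 15.6 FPKM to 59.0, 74.5 and 73.5. All 3 were called lower in the middle season in WFB on day 10 and in CHT025 on day 1, with medians of −1.12 and −3.27. In WFYT025 on day 1, 1 of them rose and 0 fell. Calmodulin-like calcium sensors rose in 12 of 18 tested genes and fell in 1, with a median of 1.17. OsCML18 (LOC_Os05g13580) went from 29.5, 30.2 and 29.1 to 305, 328 and 309 FPKM, and the fall was in OsCML1 (LOC_Os01g59530), from 303, 338 and 331 to 36.1, 35.7 and 31.2. MYB factors divided into 45 rises and 35 falls of 85 tested genes, and NAC factors into 23 and 14 of 48.

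Defence proteins were not moved as a block. Of 34 tested pathogenesis-related and chitinase genes 18 rose and 9 fell, and their summed level went from 246, 274 and 265 FPKM to 1055, 1140 and 1065. The chitinase CHIT1 (LOC_Os02g39330) went from 9.56, 12.4 and 12.8 FPKM to 195, 178 and 175. Of 151 tested immune receptor genes 47 rose and 71 fell, near the 33.2% and 45.2% of all tested genes. Their median of −0.11 was also that of all tested genes. The NBS-LRR gene LOC_Os11g11550 was among the 116 genes at or near 0 in the other WFB libraries. It stood at 24.9, 24.9 and 24.4 FPKM in the early season and 0 in all 3 middle-season libraries. Wall-associated and DUF26 kinases had 13 rises and 13 falls among 31 tested genes, but their summed level went from 813, 786 and 791 FPKM to 202, 210 and 208. A pair of DUF26 kinases held most of that sum: LOC_Os07g43560 at 392, 381 and 386 against 46.3, 48.3 and 50.6, and LOC_Os07g43570 at 296, 281 and 287 against 13.4, 13.4 and 14.6.

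Heat shock and water stress genes rose in part. Of 12 tested heat shock factors 7 rose and 4 fell, and of 15 tested small heat shock proteins, which hold unfolding proteins, 9 rose and 3 fell. The hsp20 gene LOC_Os06g14240 went from 4.39, 3.55 and 4.24 FPKM to 62.6, 66.1 and 55.0. Larger chaperones had 17 rises and 20 falls among 45 tested genes, with the DnaK gene LOC_Os03g16860 rising from 27.3, 30.8 and 30.4 to 628, 692 and 593 FPKM. Late embryogenesis and dehydrin genes rose in 8 of 10 tested genes and fell in 1. Abscisic acid genes rose in 6 of 7 tested genes, with the synthesis gene NCED5 (LOC_Os12g42280) going from 2.21, 2.19 and 2.79 to 14.6, 14.2 and 12.3 FPKM. The breakdown enzymes ABA8ox1 (LOC_Os02g47470) and ABA8ox3 (LOC_Os09g28390) rose by 2.44 and 2.38, and ABA8ox2 (LOC_Os08g36860) fell by 0.58. The abundant synthesis gene NCED1 (LOC_Os02g47510) differed by 0.16 ± 0.05, with overlapping groups, and no longer passed without middle-season library 3 (0.11).

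Cytosolic ribosomal protein genes were mostly lower in the middle season. Of 125 tested cytosolic ribosomal protein genes 108 fell, 2 rose and 15 did not pass, with a median of −0.64. Their summed level was 5992, 6360 and 6365 FPKM in the early season and 3942, 4111 and 4092 in the middle season. Organellar ribosomal proteins had 31 falls and 10 rises among 75 tested genes, or 29 and 18 with quantile normalization. Histones had 20 falls and 6 rises among 40. Over all tested genes 45.2% fell, so the share of falls was below that for organellar ribosomal proteins and near it for histones. LOC_Os03g63950, described as plastid-specific 30S ribosomal protein 1, went from 364, 387 and 374 FPKM to 26.9, 50.6 and 29.2.

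Further families gave mixed counts. Cytochrome P450 genes had 67 rises and 53 falls among 155 tested, auxin response genes 14 and 16 among 35, terpene synthases 5 and 5 among 15, universal stress proteins 5 and 6 among 15, and pollen and anther genes 7 and 8 among 22. CESA4 was the tested secondary wall gene and did not pass. The summed level of universal stress proteins went from 1125, 1312 and 1251 FPKM to 161, 182 and 168, with LOC_Os05g28740, given above, as most of the early-season sum.

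**Figure D4:**
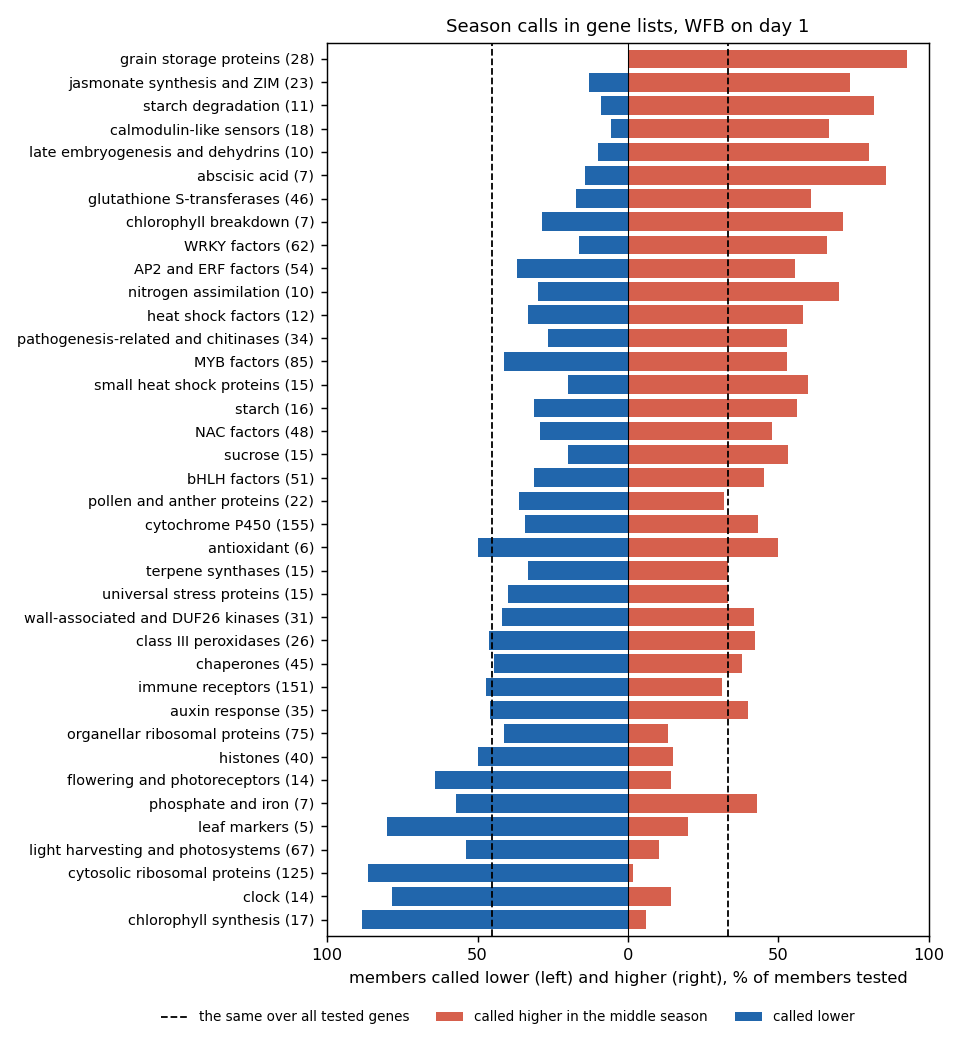
Share of tested members called higher (red, right) and lower (blue, left) in the middle season in each gene list with 5 or more tested members, whose number is in brackets, for WFB on day 1, ordered by median difference. Dashed lines mark the shares over all tested genes, 33.2% higher and 45.2% lower. Chlorophyll synthesis, clock and cytosolic ribosomal genes lie far to the left. Grain storage protein genes reach furthest to the right, with 26 of 28 higher. Abscisic acid, late embryogenesis, amylase, jasmonate and calcium sensor genes also lie to the right.

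The season difference of WFB on day 1 was set beside that of WFB on day 10 and of the other varieties on day 1, which use other libraries. On day 10, 47.7% of the tested genes were higher in WFB in the middle season and 20.2% lower, in CHT025 on day 1 40.5% and 31.5%, and in WFYT025 on day 1 30.1% and 44.1%. These balances depend on the scaling: with quantile normalization 5615 genes were higher and 6667 lower in WFB on day 10, 6452 and 6800 in CHT025, and 6871 and 6832 in WFYT025. Of the 2516 genes at least 2-fold higher in WFB on day 1, 80.8% were called higher in WFYT025, 64.5% in CHT025 and 54.4% in WFB on day 10. Of the 2580 genes at least 2-fold lower, 89.8% were called lower in WFYT025, 74.6% in CHT025 and 35.0% in WFB on day 10, where 29.9% were called higher. Across the 18585 genes, which are not independent replicates, the difference correlated at r = 0.777 with WFYT025, 0.473 with CHT025 and 0.187 with day 10.

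The difference between day 1 and day 10 in the season difference of WFB was itself called in 14373 genes, 77.3% of those tested. Of these the season difference was higher on day 1 in 4437 and lower in 9936, and with quantile normalization in 6006 and 7298. LOC_Os04g23550 was at 15.6 ± 1.4 FPKM (SD, n = 3) in the early and 4.29 ± 1.61 in the middle season on day 10, so its season difference was 9.79 ± 0.36 (SE) higher on day 1, with adjusted p = 1.18e-20. CATA ran opposite to day 1, at 7.92 ± 1.15 FPKM in the early and 191 ± 58 in the middle season, and its difference was 9.30 lower on day 1. LHY had the same mean of 385 FPKM in both seasons on day 10. Cytosolic ribosomal genes were mostly higher in the middle season on day 10, with 91 rises and 1 fall of 125, or 52 and 10 with quantile normalization. Their season difference was lower on day 1 than on day 10 in 120 of the 125 genes and higher in 0, or in 110 and 1 with quantile normalization.

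Against CHT025 the season difference of WFB on day 1 differed in 13306 genes, 71.6%, being higher in WFB in 4496 and lower in 8810. The 5 named genes that differed most ran in opposite directions in the 2 varieties. LOC_Os04g23550 was at 34.0 ± 5.4 FPKM in the early and 1.15 ± 0.35 in the middle season in CHT025, a difference between the varieties of 12.12 ± 0.36 with adjusted p = 1.04e-22. The helix-loop-helix gene LOC_Os01g56690 fell in CHT025 from 22.7 ± 2.0 to 0.11 ± 0.19 FPKM, and the ZIM domain gene LOC_Os03g08330 from 59.4 ± 2.1 to 5.14 ± 0.71. In CHT025 7 of the 23 tested jasmonate genes rose and 12 fell. The season difference of WFB was higher in 17 of them and lower in 3. Chlorophyll synthesis genes fell in both varieties, in 13 of 17 genes in CHT025.

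Against WFYT025, which has WFB as a parent, the season difference was distinct in fewer genes, 10554 or 56.8%, being higher in WFB in 5910 and lower in 4644. With quantile normalization it was higher in 4735 and lower in 5880, so which direction is more frequent depends on the scaling. LOC_Os04g23550 was at 0.06 ± 0.05 and 2.35 ± 1.72 FPKM in WFYT025, and the varieties differed by 6.55 ± 0.36. LOC_Os01g56690 was at 0.103 ± 0.117 and 0.0867 ± 0.0751 FPKM there, with a season difference of −0.02 ± 0.15. The early light-induced gene LOC_Os07g08160 rose in WFYT025 from 23.3 ± 0.4 to 2826 ± 240 FPKM, and LOC_Os07g34570 fell from 2769 ± 70 to 1.40 ± 0.38. FER2 rose in WFYT025 from 25.3 ± 1.3 to 1857 ± 7 FPKM, and its season difference was 0.95 lower in WFB, with adjusted p = 7.72e-13. The early-season libraries of WFB enter each of these differences, with the 116 genes described above.

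**Figure D5:**
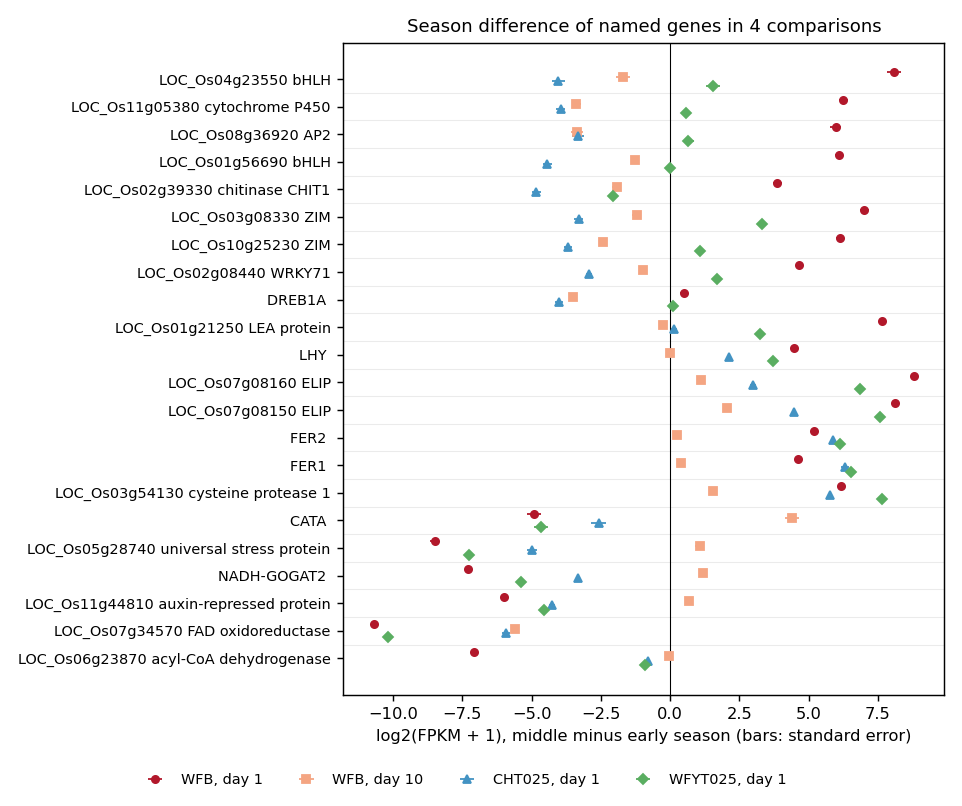
Season difference in log2(FPKM + 1), with standard errors, for 22 named genes in WFB on day 1 (circles), WFB on day 10 (squares), CHT025 on day 1 (triangles) and WFYT025 on day 1 (diamonds). The upper 9 genes are higher in the middle season in WFB on day 1 and lower in WFB on day 10 and in CHT025; LOC_Os07g34570 is lower in all 4 comparisons.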

How the data were processed

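RNA sequencing (mRNA, paired ends, per the labels' protocols) of rice flag leaves was analysed from 6 tables that the authors deposited, with 36 libraries in 12 groups of 3. The authors deposited FPKM per gene and library, as named in the file headers. Per the submitters' processing notes HISAT, StringTie and edgeR were used; their versions and settings and the genome build were not given in the sources used here. FPKM carries no counts, so depth is unknown and no counting intervals are given. The table of WFYT025 in the early season held 1 broken line and 7534 recurring lines, and 34623 genes common to all tables were used. Genes are called by the deposited locus names. Gene symbols come from a hand-written list and descriptions from the deposited annotation.

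One linear model with 12 group means was fitted to log2(FPKM + 1) of all 36 libraries with limma 3.58.1 in R 4.3.3 (trend, two-sided moderated test, Benjamini-Hochberg over 18585 genes, 24 residual degrees of freedom, median residual SD 0.106). Genes needed 1 FPKM in at least 3 libraries. An exact permutation test of 3 against 3 libraries cannot go below p = 0.10 and was not used. In a simulation with independent normal noise, 100 of the 18585 genes were changed 1.5-fold and 100 were changed 2-fold on the log2(FPKM + 1) scale. In the season difference of WFB on day 1, 87% and 97% of them were called, with 10 false calls among the unchanged genes. Since 78.3% of genes were called in the data, far more than were changed here, the simulation does not give the number of false calls in the data. The comparison, gene lists and rules were chosen with earlier results of these data known. Named genes were the 12 largest rises and falls with a described function, groups that do not overlap and 10 FPKM or more in the higher season, the 4 largest changes of each list, any member of the hand-written lists, and the 5 largest of these in each difference of season effects; genes named outside this rule were chosen after their values were seen. From the hand-written lists 3 loci were dropped because their description contradicted the role. Alternatives were pseudocounts of 0.1 and 0.5, no filter, 5 FPKM in 3 libraries, quantile normalization, the compared libraries alone, a replicate block and leaving out each library. Tables were handled with Python 3.11.15 and pandas 2.3.3 and drawn with matplotlib 3.10.9. One member of the flowering list is not reported here by name.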

Additional observations from a re-analysis of the deposited data

Results flagged for a closer look

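The season difference of WFB on day 1 differed from that on day 10 in 14373 genes, from that of CHT025 on day 1 in 13306 genes and from that of WFYT025 on day 1 in 10554 genes, each by the test of the difference itself in limma. The early-season libraries of WFB on day 1, which stand apart from the other WFB libraries, enter all of these.

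Among the named genes, the season difference on day 1 exceeded that on day 10 by 9.79 on the log2 scale for the helix-loop-helix gene LOC_Os04g23550, by 9.63 for the P450 gene LOC_Os11g05380 and by 9.32 for the AP2 factor LOC_Os08g36920. The difference of day 1 minus day 10 was −9.56 for the universal stress protein LOC_Os05g28740 and −9.30 for the catalase CATA (LOC_Os02g02400).

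The season difference of WFB exceeded that of CHT025 by 12.12 for LOC_Os04g23550, by 10.51 for the helix-loop-helix gene LOC_Os01g56690, by 10.30 and 9.80 for the ZIM domain genes LOC_Os03g08330 and LOC_Os10g25230, and by 10.19 for LOC_Os11g05380.

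It exceeded that of WFYT025 by 6.55 for LOC_Os04g23550, by 6.10 for LOC_Os01g56690, by 5.92 for the chitinase LOC_Os02g39330 and by 5.67 for LOC_Os11g05380. For the acyl-CoA dehydrogenase LOC_Os06g23870 the difference of WFB minus WFYT025 was −6.18.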

How the results depend on the processing

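All 10 counts over all genes stayed within 1.5 times their value under every alternative run. With quantile normalization 6473 genes of WFB on day 1 were higher and 7986 lower, and the median over all genes was −0.07. At a pseudocount of 0.1 FPKM 3286 genes were at least 2-fold higher and 3651 lower. Leaving out 1 library of WFB on day 1 gave 5975 to 6023 higher and 8116 to 8254 lower. With a replicate block the counts were 6134 and 8379; same-numbered libraries deviated together only at r = 0.0386 to 0.0625, so the numbers are not taken as pairs. Of the named genes, SUT1 (LOC_Os03g07480) turned to 0.01 and RBCS2 (LOC_Os12g17600) to 0.54 under quantile normalization. ZTL2 (LOC_Os06g47890) turned to −0.12 there and ranged from −0.02 to 0.02 with a library left out. SSIVa (LOC_Os01g52250), ELF3-1 and NCED1 no longer passed when the compared libraries were fitted alone. Of 1092 gene list counts 34 moved by over 1.5 times, mostly under the filter of 5 FPKM, which tests fewer genes. The cause of the other changes was not tested. The 116 genes at or near 0 in the other WFB libraries, and the 12 of the reverse pattern, were left out as an alternative chosen after seeing the data. A planned promoter motif search was not run. Without counts, depth sets an unknown limit on low genes.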

Other observations

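Thiamine synthesis genes were looked up in the deposited annotation after LOC_Os07g34570 and LOC_Os03g47610 were seen among the largest falls, so their count is a description. Of 10 annotated genes, all tested, 7 fell and 3 rose in WFB on day 1, against 45.2% and 33.2% of all tested genes. Whether each acts in thiamine synthesis was not checked beyond that annotation. LOC_Os05g33840, described as a transketolase, went from 328, 350 and 336 FPKM in the early season to 18.4, 16.8 and 17.9 in the middle season. The difference was −4.18 ± 0.06 (SE) with adjusted p = 4.14e-31 in limma. LOC_Os05g30454 and LOC_Os03g19390 of the same annotation rose by 2.25 and 1.23 on the log2 scale.

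Genes listed at 0 in one season were unevenly divided. In WFB on day 1, 27 genes were at 0 in all 3 early-season libraries and at 1 FPKM or more in all 3 middle-season ones. The reverse held for 107 genes, and 94 of these are among the 116 genes at or near 0 in the other 9 WFB libraries.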
